A study of Homo sapiens with 7 samples.

Results

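The 5 Ikaros family genes IKZF1, IKZF2, IKZF3, IKZF4 and IKZF5 were examined for occupancy by the lymphoid coactivator OCA-B, the POU factors OCT2 and OCT1, the Mediator subunit MED1 and the paralogous acetyltransferases CREBBP and EP300. Occupancy was measured by chromatin immunoprecipitation followed by sequencing (ChIP-seq) in OCI-Ly7 cells, a human line from a diffuse large B-cell lymphoma, grown in suspension with no treatment named in the labels. Each antibody gave 1 library, an input library without antibody served as the common control, and no comparison below therefore has a replicate check or a test. CREBBP and EP300 are named here as the libraries are labelled. The product numbers in the labels are, as far as known, those of a p300 (EP300) antibody for the library labelled CREBBP and of a CBP (CREBBP) antibody for the library labelled EP300. Which of these paralogues each of the 2 lists reports is therefore unsure. Statements below that set the 2 lists apart are about the lists as labelled, not about which protein was bound. A peak was counted for a gene when its summit lay inside the gene, or within 100 kb of either end and nearest to that gene among protein-coding gene ends. By this rule 401 of the 323423 peaks in the 6 lists belonged to the family, namely 104 EP300, 93 OCT2, 66 MED1, 65 OCA-B, 56 CREBBP and 17 OCT1 peaks. The 5 genes are 5 of 19974 protein-coding genes on chromosomes 1 to 22 and X.

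Ikaros family proteins are zinc finger transcription factors. Fingers near the amino end contact DNA, and fingers at the carboxyl end join the proteins into dimers within the family. IKZF1 encodes Ikaros, which is needed to form lymphocytes, and IKZF3 encodes Aiolos, which is abundant in B cells after they commit to the lineage. IKZF2 encodes Helios and IKZF4 encodes Eos, both best known from regulatory T cells. IKZF5 encodes Pegasus, which is made in many tissues and reads another DNA sequence. Ikaros and Aiolos work with the NuRD chromatin remodelling complex, and thalidomide analogues direct both to the cereblon ubiquitin ligase for destruction. OCA-B is brought to octamer DNA by OCT2 and OCT1, and Mediator, CREBBP and EP300 are coactivators found at active enhancers and promoters.

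The genes lie on different chromosomes (RefSeq, GRCh38.p14). IKZF1 lies on chromosome 7 from 50303455 to 50405101, and IKZF2 lies on chromosome 2 from 212999698 to 213152456. IKZF3 lies on chromosome 17 from 39757715 to 39864312, IKZF4 on chromosome 12 from 56007504 to 56038435 and IKZF5 on chromosome 10 from 122990806 to 123008795. IKZF1 and IKZF4 are read from the plus strand, and IKZF2 and IKZF5 from the minus strand. The promoter set used had no entry for IKZF3, so its strand and start sites are not given and its ends are named by coordinate. The surroundings differ widely. The next protein-coding gene end was 144 kb (SPMIP7) and 39.0 kb (FIGNL1) from IKZF1 and 461 kb (ERBB4) and 132 kb (SPAG16) from IKZF2. It was 10.4 kb (GRB7) and 3.89 kb (ZPBP2) from IKZF3, 1.98 kb (SUOX) and 3.48 kb (RPS26) from IKZF4, and only 416 bp (PSTK) and 211 bp (ACADSB) from IKZF5. The stretch in which a peak could be counted was therefore 193 kb for IKZF1, 319 kb for IKZF2, 114 kb for IKZF3, 33.7 kb for IKZF4 and 18.3 kb for IKZF5.

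The sequences just before the RefSeq start sites are shown because the lists differ at them, as described with the gene ends below. Each run holds the 250 bases before a start site, 5′ to 3′ on the strand of the gene, from RefSeq (GRCh38.p14). Capitals mark the Ikaros core motif TGGGAA on either strand. The first 2 lie before the first and second start sites of IKZF1 in the promoter set used, at chr7:50304466-50304715 and chr7:50308450-50308699. The others lie at chr2:213152457-213152706 (minus strand) for IKZF2, chr12:56007254-56007503 for IKZF4 and chr10:123008796-123009045 (minus strand) for IKZF5.
IKZF1 first start: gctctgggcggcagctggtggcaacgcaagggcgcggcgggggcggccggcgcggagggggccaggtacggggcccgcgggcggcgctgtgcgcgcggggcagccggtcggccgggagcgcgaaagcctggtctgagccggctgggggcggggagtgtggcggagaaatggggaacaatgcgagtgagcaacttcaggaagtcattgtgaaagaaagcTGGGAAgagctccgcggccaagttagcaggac
IKZF1 second start: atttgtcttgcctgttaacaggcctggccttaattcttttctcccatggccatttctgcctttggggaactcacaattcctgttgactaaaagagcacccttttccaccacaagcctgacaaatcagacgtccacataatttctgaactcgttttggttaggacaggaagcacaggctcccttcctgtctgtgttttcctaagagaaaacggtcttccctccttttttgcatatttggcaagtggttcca
IKZF2: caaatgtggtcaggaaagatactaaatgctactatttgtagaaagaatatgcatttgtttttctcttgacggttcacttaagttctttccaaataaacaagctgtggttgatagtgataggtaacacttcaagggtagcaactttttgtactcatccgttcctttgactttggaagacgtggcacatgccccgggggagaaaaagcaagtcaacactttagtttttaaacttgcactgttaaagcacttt
IKZF4: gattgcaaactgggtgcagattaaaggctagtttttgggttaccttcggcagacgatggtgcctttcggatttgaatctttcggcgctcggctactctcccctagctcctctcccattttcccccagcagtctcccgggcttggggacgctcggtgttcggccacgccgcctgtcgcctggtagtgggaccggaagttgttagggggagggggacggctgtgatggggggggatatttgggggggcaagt
IKZF5: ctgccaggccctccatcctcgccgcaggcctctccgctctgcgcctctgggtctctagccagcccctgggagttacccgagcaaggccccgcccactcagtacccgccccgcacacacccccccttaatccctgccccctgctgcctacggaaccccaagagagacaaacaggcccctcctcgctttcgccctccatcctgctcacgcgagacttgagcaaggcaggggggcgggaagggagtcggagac

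The promoter windows searched cover 10 start sites of 4 of the genes, IKZF1, IKZF2, IKZF4 and IKZF5. Windows of neighbouring starts overlap at IKZF4 and at IKZF5, so the 10 are not all separate sequence. The octamer ATGCAAAT was searched on both strands and was in none of the 10 windows, against 1.58% of the 22132 windows of all protein-coding genes. The octamer with 1 free base, ATGCNAAT, of which every ATGCAAAT is also a match, was in none of the 10, against 2.44% of all. TGGGAA was in 1 of the 10, against 20.1% of all, and that match lay before the first IKZF1 start. The runs also differ in base composition, with a G and C content of 71.2% and 45.2% at the first and second IKZF1 starts, 38.0% at IKZF2, 59.6% at IKZF4 and 68.0% at IKZF5. A match or its lack describes only the letters of these windows, and 10 windows are too few to set against these shares.

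The libraries held 12357450 (CREBBP) to 27885791 (EP300) tags after duplicates were removed, and the lists 23571 (OCT1) to 82569 (EP300) peaks on the chromosomes used. EP300 had both the deepest library and the longest list. The share of redundant tags read 0 in the headers of CREBBP and MED1 and 0.08 to 0.2 in those of the other 4 lists, and its part in the numbers of peaks was not tested. Fold enrichment is the pileup of fragments at the summit over the local control, as the authors' peak caller gave it. Depth and antibody differ between lists, so folds printed side by side do not rank the factors. As a check of the cell label, the B cell marker genes MS4A1, CD79A, CD79B, CD22 and PAX5 each had a peak within 1 kb of a gene end in every list, except that PAX5 had none in OCT1. Such a peak was present at 31.0% (CREBBP) to 46.2% (OCA-B) of all protein-coding genes, and in all 6 lists at 21.8%. Of the 5 T cell markers, CD8A had no peak at a gene end in any list and CD3D and CD3G in 1 list each, whereas CD3E and CD2 had one in every list except OCT1, with EP300 folds of 38.9 and 14.3.

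IKZF1 and IKZF3 carried most of the family's occupancy, IKZF2 an intermediate amount, and IKZF4 and IKZF5 little. IKZF1, the gene of Ikaros, had 43 EP300, 35 OCT2, 31 OCA-B, 28 MED1, 23 CREBBP and 8 OCT1 peaks. IKZF3, the gene of Aiolos, had 42 EP300, 41 OCT2, 23 OCA-B, 27 MED1, 23 CREBBP and 6 OCT1 peaks. IKZF2, the gene of Helios, had 17 EP300, 14 OCT2, 7 OCA-B, 9 MED1, 8 CREBBP and 2 OCT1 peaks. The 2 leading genes thus differed by 8 peaks or fewer in every list under this rule. The order of these genes within a list depended on the processing. With every list shortened to the length of the OCT1 list, IKZF1 had 13 and IKZF3 8 OCT2 peaks. With −log10 q over 5, IKZF1 had 28 and IKZF3 30 EP300 peaks. Inside the genes alone, IKZF1 had 21 OCT2, 24 EP300, 17 MED1 and 15 CREBBP peaks and IKZF3 had 37, 39, 23 and 19. There IKZF1 stayed ahead for OCA-B (21 against 19) and OCT1 (5 against 4). IKZF4, the gene of Eos, had 2 OCA-B, 2 OCT2, 1 MED1, 1 CREBBP and 1 EP300 peak and no OCT1 peak. IKZF5, the gene of Pegasus, had 2 OCA-B peaks and 1 peak in each of the other 5 lists. All protein-coding genes averaged 4.12 EP300, 3.67 OCT2, 2.83 OCA-B, 2.2 MED1, 2.26 CREBBP and 1.18 OCT1 peaks.

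**Figure D1:**
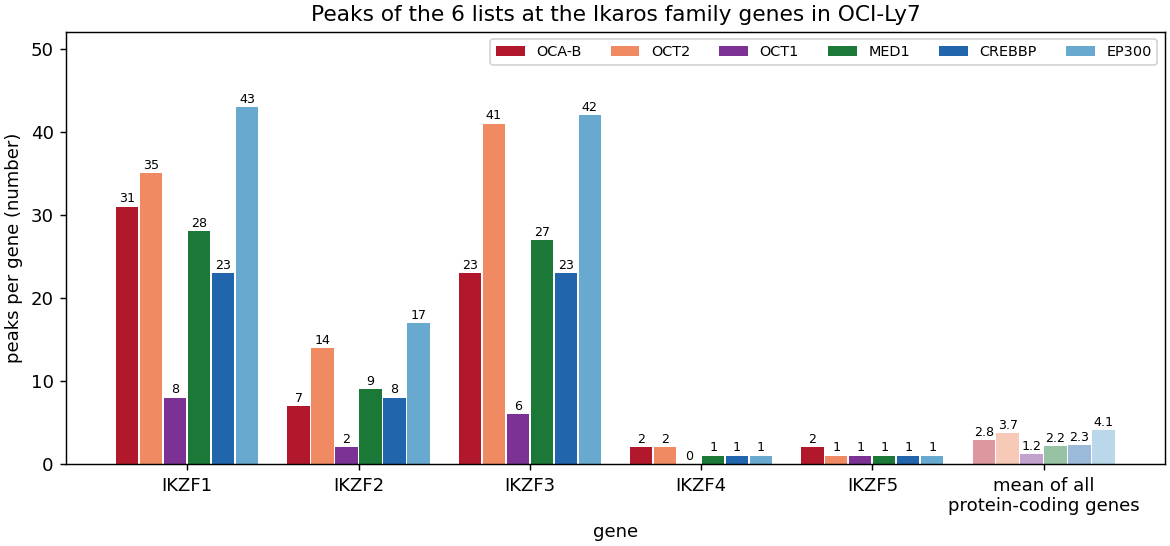
Number of peaks of each list (y axis) at the 5 Ikaros family genes and, in paler bars, the mean over all protein-coding genes (x axis). Each bar is 1 library; IKZF1 and IKZF3 reach 43 and 42 EP300 peaks, and IKZF4 has no OCT1 peak.

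Set among all 19974 protein-coding genes by the number of peaks over the 6 lists, IKZF1 (168) was at rank 110 and IKZF3 (162) at rank 124. As many peaks as IKZF1 or more were found at 0.566% of genes, and as many as IKZF3 at 0.636%. IKZF2 (57) was at rank 1225, with 6.28% of genes at or above it. IKZF4 and IKZF5 had 7 peaks each, which is the median over all genes. Per 100 kb of the stretch in which peaks could be counted, the order was different. IKZF3 had 142 peaks per 100 kb, IKZF1 86.9, IKZF5 38.2, IKZF4 20.8 and IKZF2 17.9, against 14.6 over all genes. The count at IKZF2 was thus divided by a long stretch, although its peaks were not spread evenly and 109 kb of the gene held none. Those at IKZF4 and IKZF5 came from short stretches.

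By list, IKZF1 stood highest for OCA-B, at rank 65 of all genes, and lower for OCT1, at rank 207. IKZF3 stood highest for OCT2, at rank 83, and lower for OCT1, at rank 409. At least 1 peak by the same rule was present in 70.7% of all genes for OCT2, 70.1% for EP300, 67.4% for OCA-B, 55.4% for OCT1, 55.4% for CREBBP and 52.8% for MED1. All 5 family genes had a peak in each list except IKZF4 in OCT1. A gene with at least 1 peak is thus common, and the family's members were set apart from each other by how many peaks they had. Peaks lay mostly inside the gene at IKZF3 (37 of 41 for OCT2, 39 of 42 for EP300). At IKZF1, 21 of 35 OCT2 peaks and 24 of 43 EP300 peaks lay inside, and at IKZF2 7 of 14 and 7 of 17. The gene itself was 107 of the 114 kb in which peaks could be counted at IKZF3. It was 102 of 193 kb at IKZF1 and 153 of 319 kb at IKZF2. These shares therefore depend on the counting rule and do not show that the genes differ in where they are bound.

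The genes whose numbers of peaks were most like those of the members were named by the distance between log2(number + 1) values over the 6 lists. Nearest to IKZF1 were CYTH1 (distance 0.25), with 30 OCA-B and 34 OCT2 peaks, TOP1 (0.27) and the lymphoid transcription factor gene ETS1 (0.27), with 30 and 35. Nearest to IKZF3 were LOC105377015 (0.28), PDE4B (0.32) and TGFBR2 (0.33), and nearest to IKZF2 were GRPR (0.3), PRSS2 (0.33) and PHACTR1 (0.33). These distances describe numbers of peaks in 6 libraries only.

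Joined where they overlapped by at least 1 bp, the family's peaks made 119 regions, 45 at IKZF1, 20 at IKZF2, 48 at IKZF3, 3 at IKZF4 and 3 at IKZF5, of 111561 regions in all. Of the 119, 57 (47.9%) were in a single list, against 47.0% of all regions, and 10 (8.4%) were in all 6 lists, against 9.49%. Regions in every list except OCT1 numbered 19 (16.0%), against 10.7% of all. EP300 alone made up 41 of the 119 (34.5%), against 22.4% of all. The share of regions in 1 list and the share in all 6 lists were thus near those of the whole series. The 41 EP300 regions had folds of 2.38 to 7.17 and a median of 3.85, against a median of 4.17 over all 24945 such regions. Of them 18 lay at IKZF1, 17 at IKZF3 and 6 at IKZF2, and 16 of the 41 (39.0%) had a −log10 q over 5, against 50.1% of all such regions.

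**Figure D2:**
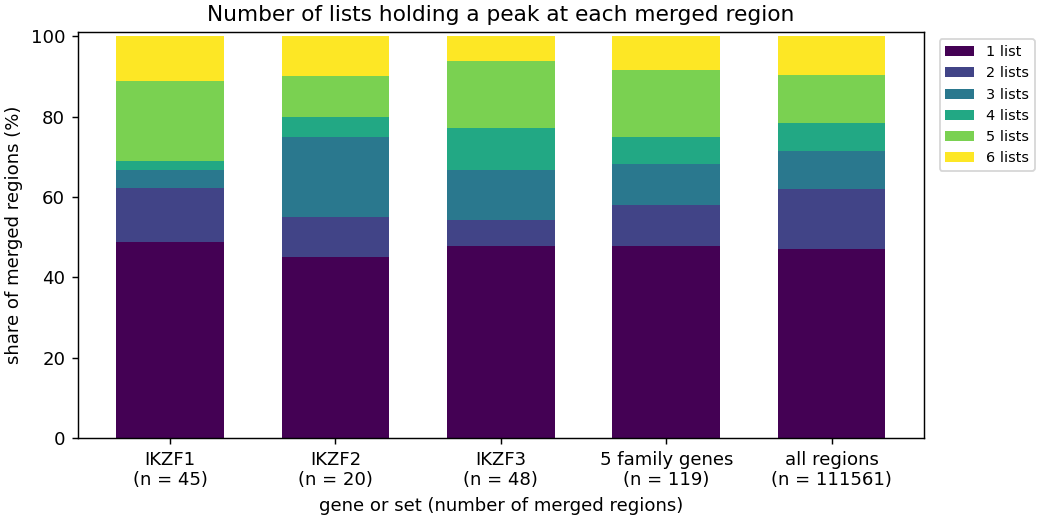
Share of merged regions (y axis, %) that hold a peak of 1 to 6 lists, for IKZF1, IKZF2, IKZF3, the 5 family genes together and all regions (x axis, with the number of regions). Regions in 1 list make up 47.9% of the family's regions and 47.0% of all regions.

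The 10 regions in all 6 lists lay at IKZF1 (5), IKZF3 (3) and IKZF2 (2). At IKZF1 the one farthest from the gene lay upstream, on chromosome 7 from 50266138 to 50269920, with the middle of its summits at −34.3 kb from the lower-coordinate end of the gene. Its highest folds were 34.3 (OCT2), 11.7 (OCA-B), 16.2 (OCT1), 44.4 (EP300), 29.9 (CREBBP) and 16.4 (MED1). The EP300 fold was at rank 675 of the 82569 EP300 peaks and was the highest of that list at the family, and the OCT1 peak was at rank 1102 of 23571. This region joined 21 peaks, and the summits of the strongest peak of each list were spread over 2406 bp. Each of the 6 lists had peaks near 2 points of this region. The stronger OCT1 peak had its summit 36.7 kb before the gene, as had peaks of OCT2 (12.3), OCA-B (9.78) and MED1 (4.86). A CREBBP peak (8.47) lay near it at 36.4 kb and an EP300 peak (7.1) at 37.0 kb. The weaker OCT1 peak (7.42) had its summit 34.3 kb before the gene, at the strongest peak of each other list in this region.

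The second strong IKZF1 region lay inside the gene, from 50337274 to 50340686, with summits at 35.1 kb from the same end. Its folds were 29.5 (OCT2), 19.9 (OCA-B), 5.6 (OCT1), 28.5 (EP300), 32.6 (CREBBP) and 18.6 (MED1). Here the strongest summits of the 6 lists lay within 112 bp of each other, and OCA-B, MED1 and CREBBP had their highest folds at IKZF1. A region of lower folds, from 50334313 to 50336227, lay just before it, with 4.78 (OCT2), 6.92 (OCA-B), 4.48 (OCT1), 8.97 (EP300), 4.35 (CREBBP) and 5.47 (MED1). Beyond the other end of the gene, a region from 50409858 to 50410948 had summits 5.0 kb past that end and within 148 bp of each other. It held the highest OCT2 fold at IKZF1 (36.9, rank 1042 of 73829), with 24.7 (EP300), 11.1 (CREBBP), 10.6 (MED1), 14.4 (OCA-B) and 5.17 (OCT1).

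**Figure D3:**
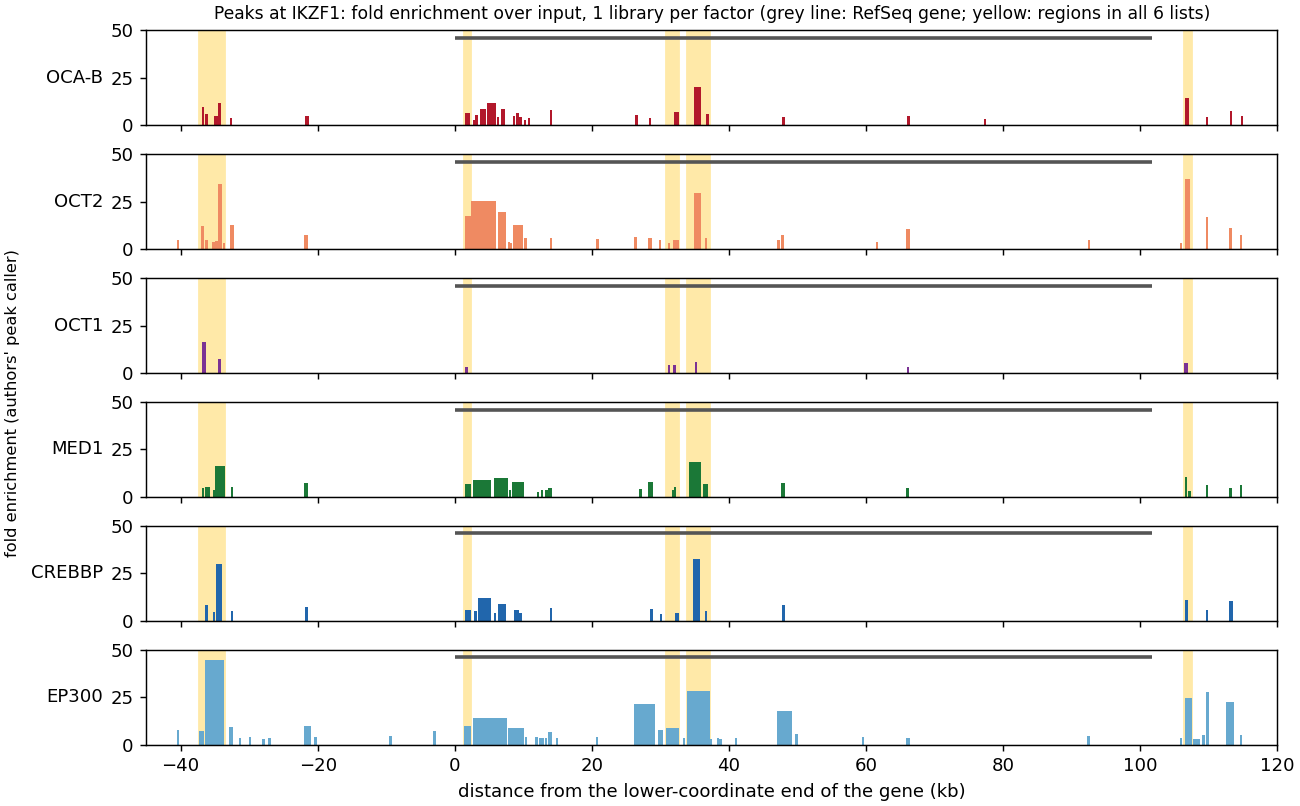
Peaks counted for IKZF1 in the 6 lists: distance from the lower-coordinate end of the gene in kb (x axis) and fold enrichment (y axis, 0 to 50), each bar 1 peak at its own width, narrow ones at a minimum width. The tallest bars stand in the yellow regions upstream (EP300 44.4), inside the gene (CREBBP 32.6) and past its far end (OCT2 36.9).

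The remaining IKZF1 region of all 6 lists, from 50304868 to 50305837, followed the first start site. The first IKZF1 start site in the promoter set used is at 50304716, which is 1261 bp inside the RefSeq gene. The lower-coordinate end of the gene itself has no entry in that set. The nearest peaks began 152 bp (EP300), 182 bp (OCA-B), 187 bp (OCT2), 195 bp (MED1), 215 bp (CREBBP) and 354 bp (OCT1) after this start. The OCT2 fold was 17.2, EP300 had 10.1, MED1 6.71, OCA-B 6.39, CREBBP 5.55 and OCT1 3.28. All 6 lists were thus next to this start, and none overlapped the first printed sequence. Between 50305902 and 50313565 a joined stretch of 7.66 kb followed in all lists except OCT1, with folds of 25.2 for OCT2, 13.8 for EP300, 12.1 for CREBBP, 11.8 for OCA-B and 10.1 for MED1. It covers the second start site, at 50308700, and the second printed sequence, and the OCT1 peak nearest to that start was 3.43 kb away. The OCA-B and OCT2 summits lay 35 and 63 bp before this start.

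IKZF3 had its strongest regions at its lower-coordinate end and inside the gene. The first ran from 39755063 to 39758898 across that end, with folds of 26.4 (OCT2), 15.2 (OCA-B), 5.23 (OCT1), 31.6 (EP300), 38.0 (CREBBP) and 20.4 (MED1). The second ran from 39792371 to 39795652, with 28.7 (OCT2), 17.7 (OCA-B), 4.32 (OCT1), 34.5 (EP300), 45.9 (CREBBP) and 23.8 (MED1). Both were close to each other in every list, and the second held the highest fold of the gene in each list except OCT1. Its MED1 fold was at rank 1071 of 43508 and its CREBBP fold, the highest of that list at the family, at rank 1336 of 44585. The strongest summits lay within 79 bp of each other in the second region and within 100 bp in the first. The third region in all 6 lists lay at the higher-coordinate end, from 39863614 to 39864337. Its folds, 4.3 (OCT2) to 6.27 (MED1), were below those of the first and second regions in every list except OCT1 (5.95). The region next to it, from 39864372 to 39866730, lay between IKZF3 and ZPBP2 and had 16.1 for CREBBP, 14.9 for EP300, 14.2 for MED1, 10.0 for OCT2 and 7.77 for OCA-B, without OCT1.

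**Figure D4:**
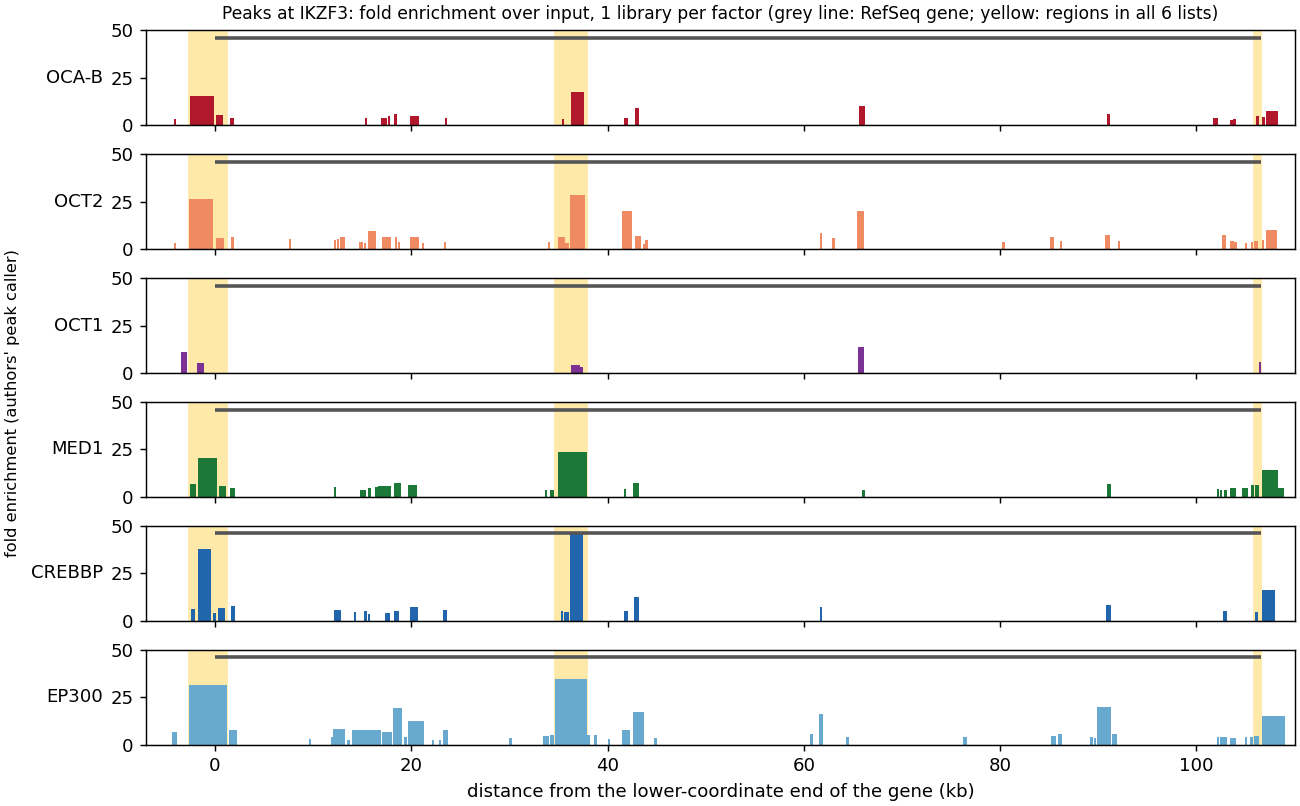
Peaks counted for IKZF3 in the 6 lists: distance from the lower-coordinate end of the gene in kb (x axis) and fold enrichment (y axis, 0 to 50), each bar 1 peak at its own width, narrow ones at a minimum width. The tallest bars stand at the lower-coordinate end (CREBBP 38.0) and near 36.8 kb (CREBBP 45.9), and OCT1 has its tallest bar near 65.8 kb (13.9).

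The strongest OCT1 peak of IKZF3 stood at neither of these places. It lay inside the gene in a region from 39823095 to 39823943, with folds of 13.9 for OCT1, 20.2 for OCT2, 10.1 for OCA-B and 3.83 for MED1, and with no CREBBP or EP300 peak. This set of lists was found at 73 of all 111561 regions (0.0654%), and this was the family's 1 case. Another OCT1 peak, with a fold of 11.3, lay alone from 39754289 to 39754916 on the side of GRB7. OCT2 without OCT1 was also strong at a region from 39799149 to 39800233, with folds of 20.1 for OCT2 and 3.97 for OCA-B, 4.08 for MED1, 5.34 for CREBBP and 7.67 for EP300.

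The 20 IKZF2 regions included 2 in all 6 lists and a group around its outer start. The others held 3 lists or fewer, and the strongest OCT2 peak among them (fold 12.3, from 213185256 to 213185518, with OCA-B and EP300) had its summit 32.9 kb beyond the gene. A region inside the gene, from 213036776 to 213038768, had folds of 43.2 (OCT2), 25.6 (OCA-B), 16.4 (OCT1), 26.7 (EP300), 32.0 (CREBBP) and 13.9 (MED1). The OCT2 fold was at rank 456 of 73829, the OCA-B fold at rank 795 of 55361 and the OCT1 fold at rank 1073 of 23571. These were the highest OCA-B, OCT2 and OCT1 folds of the whole family, at a gene with far fewer peaks than IKZF1 and IKZF3. The strongest summits of the 6 lists lay within 84 bp of each other, 38.1 kb from the lower-coordinate end. From 213039704 to 213148751, 109 kb or 71.4% of the gene, no list had a peak. The longest such stretch inside the gene was 14.9 kb at IKZF1, 15.6 kb at IKZF3, 21.2 kb at IKZF4 and 8.99 kb at IKZF5.

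The other IKZF2 region in all 6 lists lay 13.8 kb beyond the higher-coordinate end, from 213165553 to 213167104. Its folds were 17.6 (OCT2), 10.7 (OCA-B), 4.14 (OCT1), 21.0 (EP300), 25.6 (CREBBP) and 15.5 (MED1). The MED1 fold was the highest of that list at the gene. With lncRNA ends competing, the OCT1 peak of this region was no longer counted for IKZF2, which then had 1 OCT1 peak. The strongest summits of the 6 lists in this region lay within 119 bp of each other. Under that setting IKZF2 also had fewer peaks in the other lists. There were 5 OCA-B, 8 OCT2, 7 MED1, 6 CREBBP and 9 EP300 peaks, in place of 7, 14, 9, 8 and 17. At the start site at 213152456, which is the higher-coordinate end of the gene, the region from 213152388 to 213153143 had weak peaks of OCA-B (3.82), MED1 (4.78), CREBBP (4.7) and EP300 (2.9). A region on either side of it held every list except OCT1. The one inside the gene, from 213150824 to 213151657, had folds of 12.1 (CREBBP), 9.19 (EP300), 6.28 (MED1), 6.2 (OCA-B) and 5.29 (OCT2), and the one outside, from 213153334 to 213154089, had 4.54 (CREBBP) to 6.26 (MED1). OCT2 and OCT1 had no peak in the printed IKZF2 sequence. The nearest OCT2 peak was 835 bp away from the start and the nearest OCT1 peak 13.5 kb.

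**Figure D5:**
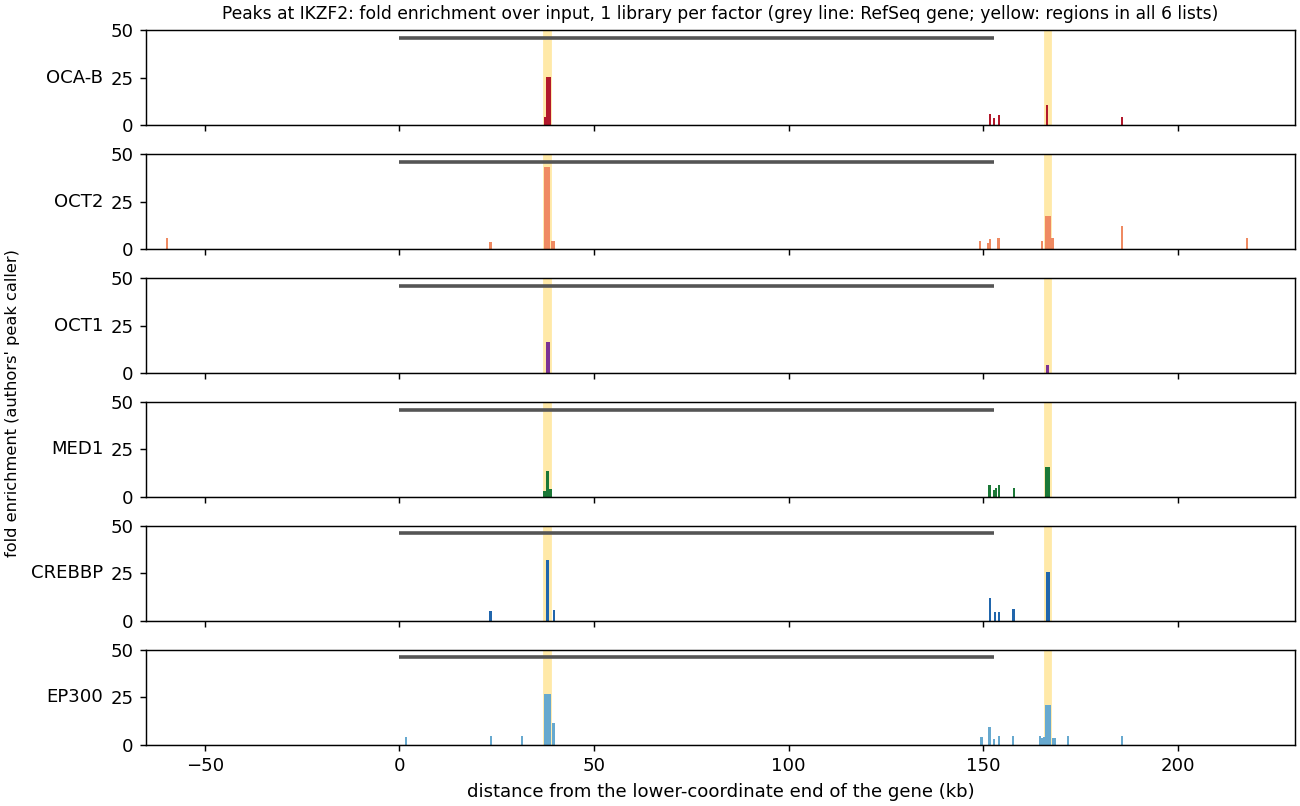
Peaks counted for IKZF2 in the 6 lists: distance from the lower-coordinate end of the gene in kb (x axis) and fold enrichment (y axis, 0 to 50), each bar 1 peak, narrow ones at a minimum width. The tallest OCT2 bar (43.2) stands near 38.1 kb, and shortly after it a stretch of 109 kb of the gene holds no bar.

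IKZF4 and IKZF5 had 3 regions each, and the strongest lay at the outer start of each gene and held different lists. At IKZF4 the region from 56007115 to 56007456, ending 48 bp before the first start at 56007504, had folds of 13.7 for OCT2, 7.75 for MED1, 6.47 for CREBBP, 4.87 for OCA-B and 4.35 for EP300. All 5 peaks overlapped the printed IKZF4 sequence. The nearest OCT1 peak was 33.2 kb from this start. The gene's 2 other regions were an OCA-B peak from 56008063 to 56008548 (fold 6.4) and an OCT2 peak from 56029780 to 56029946 (3.08). At IKZF5 the region from 123008617 to 123009045 held OCA-B (fold 11.2) and OCT1 (7.31) and none of the other 4 lists. It covers the 211 bp between IKZF5 and ACADSB, so it cannot be given to either gene alone, and both peaks overlapped the printed IKZF5 sequence. The OCA-B and OCT1 summits lay 41 and 21 bp before the start at 123008795. A second IKZF5 region, from 123007864 to 123008243, had OCA-B (3.6), MED1 (4.46), CREBBP (3.96) and EP300 (3.39). The only OCT2 peak, from 122999795 to 123000095, had a fold of 4.48 and was 8.7 kb from this start. The 250 bases before the first IKZF4 start thus held a peak of every list except OCT1, and those before the outer IKZF5 start held OCT1 and OCA-B without OCT2. The other 2 IKZF4 starts, at 56020905 and 56021043, had their nearest peak of any list, OCT2, 8.88 and 8.74 kb away.

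A peak within 1 kb of either gene end was counted for all genes in the same way. OCA-B had one at 4 of the 5 genes (all genes 46.2%), OCT2 at 3 (40.9%), OCT1 at 2 (41.9%), MED1 at 4 (33.7%), CREBBP at 4 (31.0%) and EP300 at 4 (45.5%). IKZF3 had one in each of the 6 lists, against 21.8% of all genes. IKZF1 had none in any list, because the nearest peaks at its lower-coordinate end began 1413 bp (EP300) to 1615 bp (OCT1) away, after the first start site. With a window of 2.5 kb IKZF1 was added in all 6 lists. Counts over 5 genes say little beside these shares, and no test of them was made.

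OCT2 peaks at the family were next split by overlap with OCA-B. At the 50 OCT2 peaks with OCA-B, 45 (90.0%) overlapped MED1, 40 (80.0%) CREBBP, 49 (98.0%) EP300 and 13 (26.0%) OCT1. At the 43 OCT2 peaks without OCA-B, 12 (27.9%) overlapped MED1, 12 (27.9%) CREBBP, 32 (74.4%) EP300 and 1 (2.33%) OCT1. Over all OCT2 peaks the MED1 shares were 72.4% with OCA-B and 20.2% without, and the EP300 shares 89.9% and 49.5%. The CREBBP shares were 71.9% with OCA-B and 20.5% without, and the OCT1 shares, 35.3% and 3.46%, were above those of the family. The order at the family was thus that of the whole series. Peaks with OCA-B were also stronger, with a median OCT2 fold of 7.08 at the family, against 4.3 without, so strength moved with the split and its part in the result was not tested. By gene, MED1 overlapped 22 of 24 OCT2 peaks with OCA-B and 3 of 11 without at IKZF1, 18 of 20 and 8 of 21 at IKZF3, and 4 of 5 and 1 of 9 at IKZF2. CREBBP peaks of the family all overlapped EP300 (56 of 56), against 92.1% of all CREBBP peaks. OCT1 overlapped 14 of the 65 OCA-B peaks of the family (21.5%), against 31.5% of all OCA-B peaks.

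Regions in more lists had higher folds in most lists. The median OCT2 fold was 27.5 at the 10 regions in all 6 lists, 7.36 at the 26 in 4 or 5 lists and 4.48 at the 29 in 1 to 3 lists, and over the whole series the medians were 17.2, 7.14 and 5.05. For CREBBP they were 27.8 (10 regions), 6.26 (24) and 5.54 (5), against 16.2, 7.04 and 5.12. For OCA-B they were 13.1, 4.97 and 3.63, against 12.0, 5.78 and 4.77. OCT1 did not follow this order at the family, with 5.2 in 6 lists, 8.52 in 4 or 5 lists and 9.3 in 1 to 3 lists, the last 2 from 2 regions each. Nor did it over the whole series, where the OCT1 medians were 5.72, 5.77 and 5.85. Folds of a region are the highest of each list there, and a wide region holds more peaks to choose from.

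Genes of the family's partners were counted at their ends in the same way. Over all genes such a peak was present at 45.5% (EP300), 46.2% (OCA-B), 40.9% (OCT2), 31.0% (CREBBP), 33.7% (MED1) and 41.9% (OCT1). Of 13 NuRD genes, which encode the remodelling and deacetylase complex that Ikaros and Aiolos join, 12 had EP300, 11 OCA-B, 10 OCT2, 10 CREBBP, 8 MED1 and 8 OCT1. The methyl-CpG binding gene MBD2 had folds of 26.2 for CREBBP and 19.2 for EP300, and GATAD2B, a scaffold subunit, 19.3 and 28.2. MTA2 had the highest OCT1 fold at a gene end among the 13 NuRD genes (21.7), and MTA1 had no peak at its ends in any list. Of the 4 other corepressor genes, SIN3A had 5 lists and SIN3B 3, and CTBP1 and CTBP2 had none. Of the 5 genes of the cereblon ligase, RBX1 had all 6 lists and DDB1 all but MED1, CRBN and CUL4A had OCT1 only (folds 6.61 and 5.81), and CUL4B had none. CRBN, the substrate receptor for thalidomide analogues, had 4 peaks over the 6 lists, against a median of 7 over all genes. IKZF1 and IKZF3, the genes of its drug-directed substrates, had 168 and 162. DDB1, which had an end peak in 5 lists, was nearest to only 1 peak by summit, so both counts depend on the neighbouring genes.

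The rule set the edges of each gene's peaks. The outermost IKZF1 peaks lay 40.4 kb before the gene and 13.1 kb past it, and the next peaks outward were nearest to SPMIP7 and FIGNL1. At IKZF2 the outermost peaks were 59.7 and 65.0 kb away, both OCT2 (folds 5.94 and 5.77). The next peak on the lower-coordinate side was a CREBBP peak (4.75) 136 kb away and beyond the limit of 100 kb. On the other side it was a MED1 peak (7.18) 75.1 kb away and nearer to SPAG16. At IKZF3 the last peak counted beyond the higher-coordinate end was MED1 (4.5) at 1.86 kb, and the next was EP300 (5.76) at 2.99 kb, nearer to ZPBP2.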

How the data were processed

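Peaks were called with MACS2 2.1.1.20160309, per the file headers, for each ChIP library on its own against the same input (37517450 tags after filtering), in narrow mode with a q threshold of 0.05 and 1 tag kept per position. Per the submitters' processing notes, CASAVA 1.8.2, Bowtie2 2.3.2.2 and SAMtools 1.3.1 were also used, and the build was hg38. The deposited columns used were position, summit, pileup signal, fold enrichment (a ratio over the local control) and −log10 q-value; the deposited −log10 p-value was not used. Folds are the authors' and only describe and rank peaks within a list.

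From these, peaks on chromosomes 1 to 22 and X were assigned to genes by summit, joined where they overlapped by at least 1 bp, and counted at gene ends (1 kb), with RefSeq positions (GRCh38.p14), Python 3.11.15 and pandas 2.3.3. Counting was tested on simulated data. Each factor had 1 library, so nothing was tested and no interval is given. The members and lists were chosen with earlier results of these data known. Genes and regions were named by rule: the highest fold per list and gene, regions in all 6 lists, regions at gene ends, the 3 genes nearest in log2(number + 1), and partner genes with none or the highest folds. The IKZF1, IKZF2, IKZF3 and IKZF4 regions described beside these were chosen after their values were seen. One gene of the marker lists is not reported here.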

Additional observations from a re-analysis of the deposited data

How the results depend on the processing

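With every list shortened to the length of the OCT1 list by −log10 q, the family had 155 peaks in place of 401 and 41 merged regions in place of 119, fewer peaks having been kept by construction, and 7 regions in all 6 lists in place of 10. The totals of peaks and merged regions stayed within 1.5 times under the other alternatives. These gave 277 (gene body only) to 399 (flank of 50 kb) peaks and 84 (gene body only) to 165 (summits within 250 bp) regions. Regions in all 6 lists numbered 8 with −log10 q over 5 and 9 with summits within 250 bp. Of 225 recomputed counts for single genes or lists, 155 stayed within 1.5 times and 70 fell below. With lncRNA ends competing, IKZF2 had 10 merged regions in place of 20. At gene ends, −log10 q over 5 took IKZF5 out of CREBBP and EP300. No paired analysis was possible because each factor had 1 library. EP300 had the deepest library and the most regions in its list alone, and the part of depth in this was not tested.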

Other observations

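Across the family's merged regions that hold both lists, the folds of MED1, CREBBP and EP300 had higher rank correlations with each other than with those of OCT1. Spearman's rho of the folds was 0.75 between CREBBP and EP300 (39 regions), 0.74 between MED1 and CREBBP (34) and 0.74 between MED1 and EP300 (44), against 0.79, 0.73 and 0.62 over all regions with both lists. For OCA-B it was 0.74 with CREBBP (32 regions), 0.73 with EP300 (39), 0.68 with MED1 (36) and 0.57 with OCT2 (37), against 0.59, 0.52, 0.62 and 0.62 over all. For OCT1 it was 0.5 with OCT2 (12 regions), 0.46 with EP300 (11), 0.44 with OCA-B (13), 0.18 with CREBBP (10) and 0.1 with MED1 (12), against 0.25, 0.07, 0.26, 0.15 and 0.17 over all. These are correlations across regions, which lie in 5 loci, share 1 input and are not independent, and they are given as descriptions.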
